A study of Rattus norvegicus with 210 samples.

Results

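The preoptic area (POA) of female rats exposed to diethylstilbestrol (DES) around birth was compared between postnatal day (PND) 90, in adulthood, and PND42. The study places its PND42 measurements of GnRH release after puberty. The comparison takes the 15 POA libraries of the DES groups D3, D6 and D12 at PND90 and the 15 of the same groups at PND42, chosen by tissue, treatment and age in the sample labels, which makes 30 of the 210 libraries of the series. DES is a synthetic estrogen, given here by gavage to Sprague-Dawley dams from gestation day 7 to PND22, so the offspring were exposed in the womb and during lactation. The dams of D3, of D6 and of D12 took 3, 6 or 12 µg per kg of body weight each day, with 5 rats per dose and age, and 10 POA libraries of vehicle (corn oil) rats of the same ages, 5 per age, served for the test of exposure. Exposure had ended at PND22 in every group, the rats of both ages were different animals, and the litters they came from are not given in the labels. The methods do not state the estrous stage of the rats used for sequencing; the study names diestrus for the PND90 rats of this exposure whose GnRH release was measured.

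The POA, in front of the optic chiasm, holds most of the neurons that make gonadotropin-releasing hormone (GnRH), the peptide that drives the pituitary and ovary. In female rats puberty falls between weaning and adulthood, and over the same weeks the forebrain goes on forming myelin, the lipid sheath that oligodendrocytes wrap around axons and that requires much newly made cholesterol. Oxytocin and vasopressin are made by large (magnocellular) neurons of the supraoptic and paraventricular nuclei, some of which lie next to the POA, so that their transcripts in a dissected block depend on its borders.

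Each of the 30 libraries held between 14126814 and 24247711 reads counted on genes. Levels are in CPM, a gene's share of all counted reads of its library, without TMM scaling. Fold changes and adjusted p-values come from edgeR's quasi-likelihood test with dose as a covariate, and genes count as called below 0.05, adjusted over all genes tested. A positive log2 fold change means a higher level at PND90.

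Some libraries carried transcripts of other tissues. D6 PND90 replicate 2 held transcripts of the pituitary: prolactin (Prl) was at 201200 CPM and growth hormone (Gh1) at 60070 CPM, against at most 6.63 and 3.50 CPM in the other 14 PND90 libraries. The same library had 0.157 CPM of Gnrh1 and 15.1 CPM of the myelin gene Mbp, which reached 2955 CPM or more in the other PND90 libraries. D6 PND42 replicate 4 held transcripts of more caudal regions, with 869 CPM of Pmch, a peptide of the lateral hypothalamus, and 678 CPM of Prkcd, which marks the thalamus, and only 0.588 CPM of Gnrh1. Gnrh1 lay between 7.82 and 26.2 CPM in the other 28 libraries. Transcripts of the choroid plexus, a tissue that lines the ventricles, summed to between 698 and 1817 CPM in D3 PND42 replicates 1, 2 and 3 and to at most 55.4 CPM in the rest. Markers of cortex and hippocampus exceeded 100 CPM among the DES libraries in D3 PND42 replicates 1 and 4, in D6 PND90 replicate 4 and in D6 PND42 replicate 4. Results are therefore given with all 30 libraries, without D6 PND90 replicate 2 (29 libraries) and without both D6 PND90 replicate 2 and D6 PND42 replicate 4 (28 libraries, 14 against 14). The count of called genes is also given without all 7 libraries named here.

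**Figure D1:**
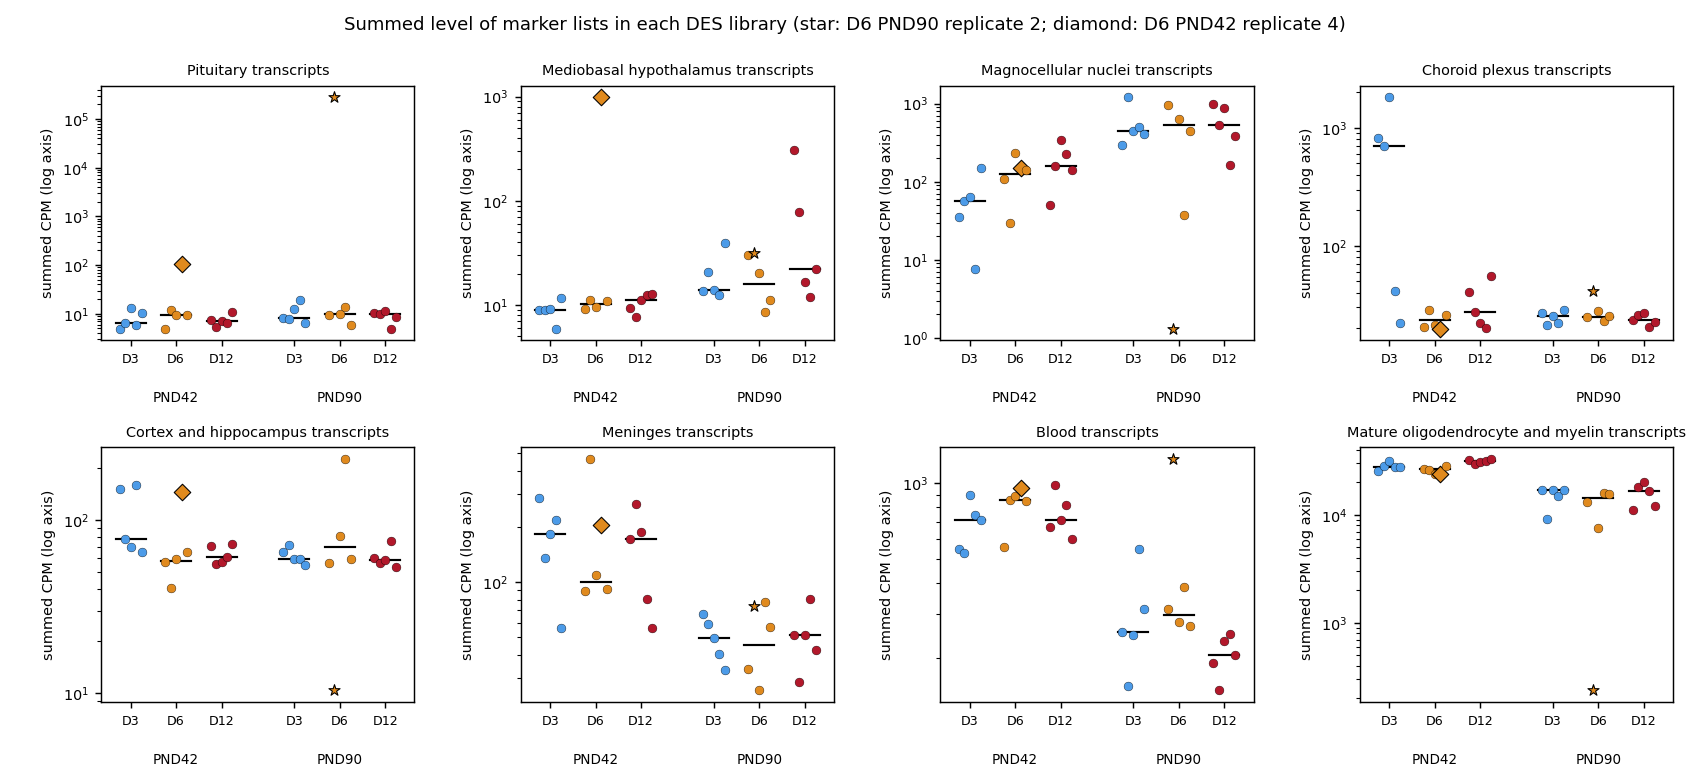
Summed level in CPM, on a log axis, of 8 lists of marker genes in each of the 30 DES libraries, by dose and age; each point is a rat and the black line is the median of a group without the star and the diamond. The star (D6 PND90 replicate 2) stands at 278400 CPM of pituitary transcripts and the diamond (D6 PND42 replicate 4) at 984 CPM of mediobasal hypothalamic transcripts, while the myelin list of the other libraries lies between 23660 and 32930 CPM at PND42 and between 7505 and 20140 CPM at PND90.

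With all 30 libraries, 1136 of 15187 genes (7.48%) differed between PND90 and PND42, of which 468 were higher (3.08%) and 668 lower (4.4%) at PND90. Without the pituitary library the number was 2707 of 15283 (17.7%), with 1169 higher and 1538 lower, and all 1136 genes were called again in the same direction. Without both libraries it was 3329 of 15267 (21.8%), with 1657 higher and 1672 lower, and without the 7 libraries it was 2036. The median log2 fold change of all genes tested was 0.03 with 30 libraries and 0.01 with 28. Over the 28 libraries, the ranges of both ages did not overlap for 89 genes (0.583% of those tested). These were 84 genes that were lower at PND90 and 5 that were higher, namely Cartpt, Sst, Tac1, Qdpr and Thap11.

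Genes of myelin had the largest share of members that fell among the 23 functional lists examined, with 30 and with 28 libraries. Of 22 measured genes of mature oligodendrocytes, 13 fell and none rose with all 30 libraries (background 4.4% lower), and 20 fell with 29 (background 10.1% lower) and with 28 libraries (background 11% lower). The median log2 fold change of the list was -0.91 with 30 libraries and -0.82 with 28. In 10 of the 22 genes, the highest PND90 library of the 28 lay under the lowest PND42 library. Over all genes tested, 84 of 15267 were lower without overlap.

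Ugt8 makes galactosylceramide, a main lipid of the sheath. It ranged from 299 CPM over a median of 403 to 538 CPM at PND42, and from 70.4 over 132 to 201 CPM in the 14 PND90 libraries of brain tissue. The ages did not overlap, and the log2 fold change was -1.72 (SE 0.31, adjusted p = 0.00075) with 30 libraries and -1.62 (SE 0.10, adjusted p = 2.85e-12) with 28. Cldn11, which forms the tight junctions of the sheath, was at 532, 609 and 748 CPM (lowest, median and highest) at PND42 and at 129, 267 and 313 CPM at PND90. All 14 PND90 values were under all PND42 values, with a log2 fold change of -1.31 (SE 0.10) over 28 libraries. The proteolipid gene Mal (-1.11) and Mog (-1.05), which encodes a protein of the outer sheath, also separated the ages without overlap. Mbp, a main structural protein of the sheath, overlapped between ages, with a log2 fold change of -0.74 (adjusted p = 0.000155) with 28 libraries and no call with 30 (adjusted p = 0.109). Hapln2 and Nkx6-2, a node protein and a transcription factor, were the members that no fit called.

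Oligodendrocyte precursors and cells at the start of differentiation are marked by other genes. In this list, 5 of 12 measured genes fell and none rose with 30 libraries (background 4.4% lower), and 7 fell with 28 (background 11% lower). Gpr17, a receptor carried by precursors that are about to mature, was at 35.3, 54.5 and 65.6 CPM at PND42 and at 20.1, 25.9 and 35.2 CPM at PND90 (lowest, median, highest of 14). Its log2 fold change was -1.15 (adjusted p = 0.00525) with 30 libraries and -1.08 (SE 0.07, adjusted p = 1.21e-12) with 28, and the ages did not overlap. Enpp6, a marker of newly formed oligodendrocytes, went from 13.3, 17.6 and 24.3 CPM to 3.44, 7.19 and 9.89 CPM, again without overlap (log2 fold change -1.42, SE 0.12, with 28 libraries). Bmp4, a growth factor of the lineage, fell by 1.31 on the log2 scale with overlapping ages. Pdgfra, the receptor by which precursors are usually recognised, fell by 0.36 with 28 libraries and was not called with 30, whereas Cspg4 (log2 fold change -0.13) was called in neither. Because these are bulk samples, fewer cells of a type and less RNA per cell cannot be told apart.

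Marker levels of other sources also differed between libraries. D3 PND90 replicate 2 and D6 PND90 replicate 3 had the lowest myelin sums of the 28 libraries, 9193 and 7505 CPM. They had 1204 and 633 CPM of magnocellular transcripts, against a PND90 median of 475 CPM. D12 PND90 replicate 1 and D6 PND90 replicate 1 had myelin sums of 11040 and 13150 CPM and magnocellular sums of 984.5 and 947.6 CPM. In contrast, D12 PND90 replicate 5 had 11950 CPM of myelin and 380.6 CPM of magnocellular transcripts. D12 PND90 replicate 3, with the highest myelin sum at PND90 (20140 CPM), also had high magnocellular transcripts (881.7 CPM). The neuron list summed to between 4357 and 5814 CPM at PND42 and between 3839 and 5919 CPM at PND90. The part of the dissected tissue's makeup in the myelin values was not tested.

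**Figure D2:**
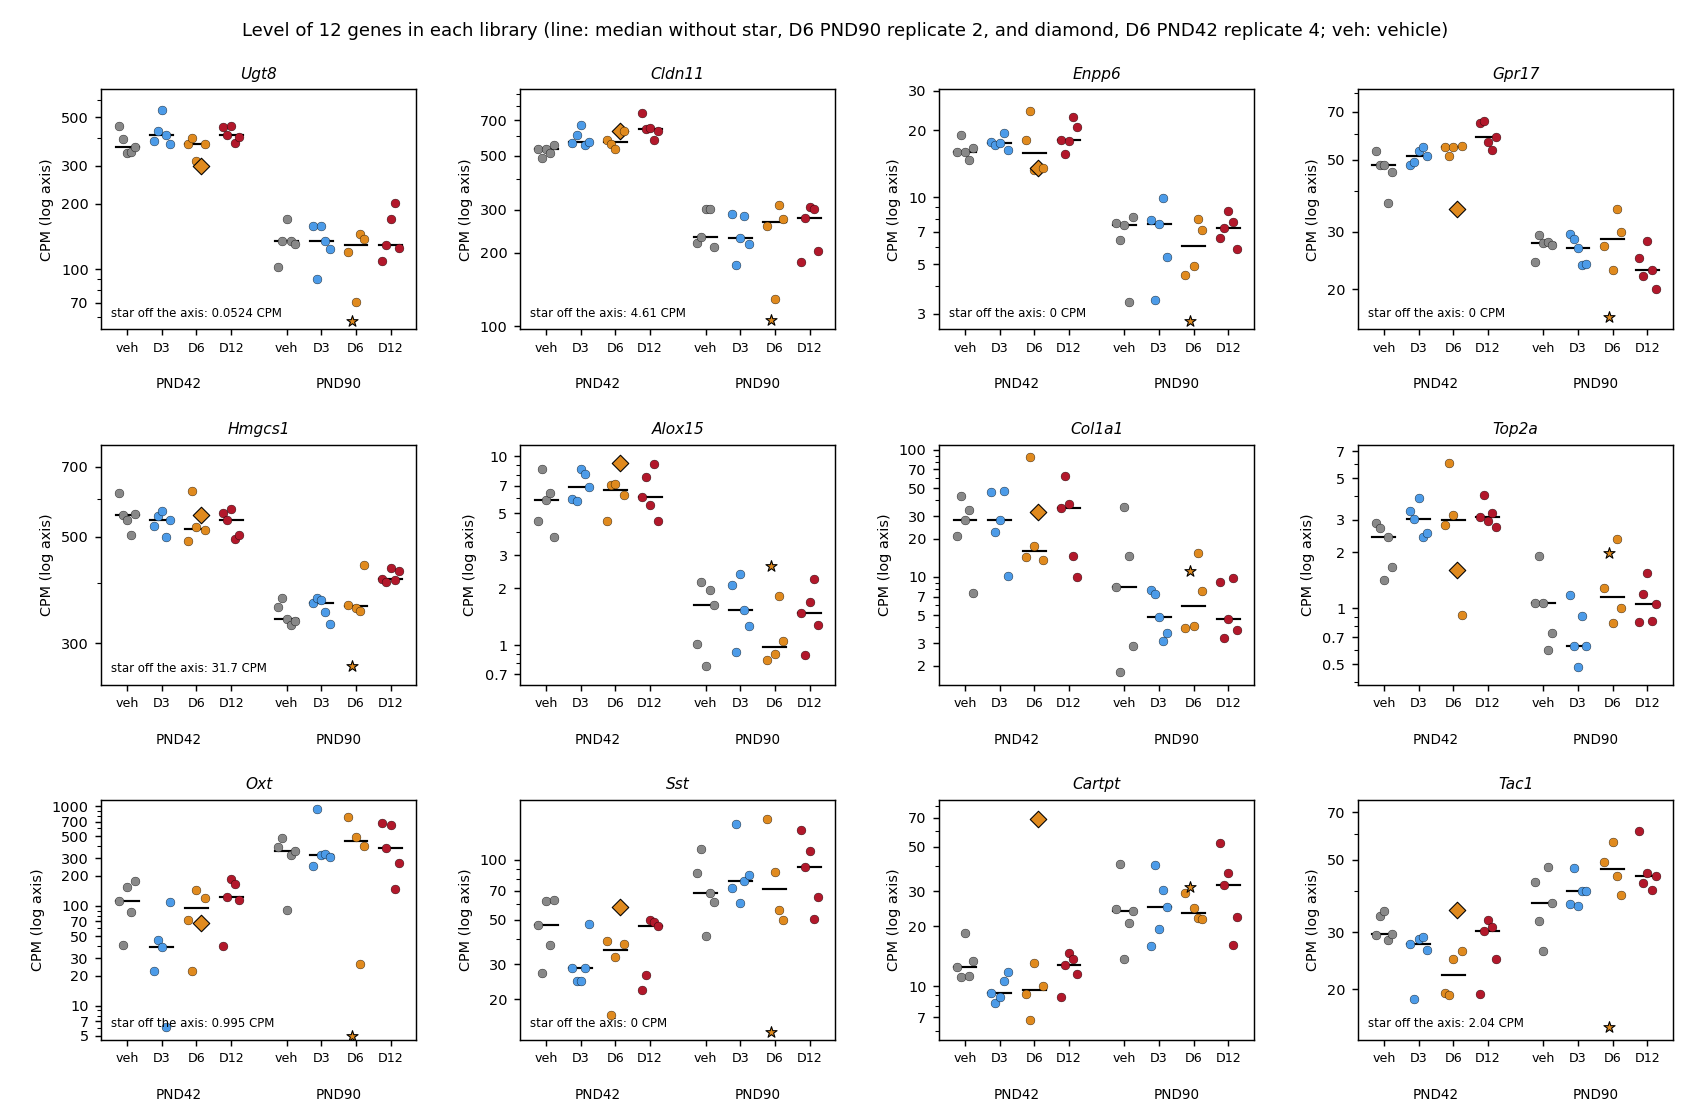
Level in CPM, on log axes, of 12 genes in each POA library of vehicle (grey), D3, D6 and D12 rats at PND42 and PND90; each point is a rat, lines are group medians without the star and the diamond, and a star drawn at the lower edge is off the axis with its value printed. Ugt8, Cldn11, Enpp6 and Gpr17 of the DES rats are lower at PND90 without overlap outside the star, and Sst, Cartpt and Tac1 are higher at PND90 without overlap once the star and the diamond are set aside.

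Enzymes of cholesterol synthesis fell as well. With 30 libraries 8 of 19 measured members fell and none rose (background 4.4% lower). With 29 libraries (background 10.1% lower) and 28 (background 11% lower) 14 fell. The median log2 fold change was -0.31 with 30 and with 28 libraries. Hmgcs1, which acts early in the pathway, fell by 0.50 on the log2 scale with 28 libraries. It was at 490, 542 and 623 CPM at PND42 (lowest, median, highest) and at 329, 372 and 437 CPM at PND90. Cyp51, a demethylase of the later pathway, went from 257, 299 and 314 CPM to 182, 204 and 229 CPM (log2 fold change -0.50, SE 0.04, adjusted p = 2.34e-11 with 28 libraries). Neither gene overlapped between the ages, which also held for Nsdhl (-0.42), whereas Hsd17b7 (-0.52) and Idi1 (-0.44) overlapped. Mvd, Mvk, Fdps, Insig1 and Stard4 were not called, with log2 fold changes between -0.13 and 0.01.

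Promoters of 13 members were matched by symbol in RefSeq (assembly GRCr8), each from 250 bases before to 50 bases after the start of the gene. The CCAAT box (letters CCAAT, on either strand) stood in 11 of these 13 and in 37.5% of the 33469 promoters of the table, and the sterol element TCACNCCAC in 0 of 13 and in 1.12% of all. The promoters of Hmgcs1 (chr2:53382054-53382353, plus strand), Nsdhl (chrX:155817110-155817409, plus strand) and Hsd17b7 (chr13:84722705-84723004, minus strand) are shown because these genes fell in every fit and hold the box, with CCAAT or its complement in capitals.
Hmgcs1: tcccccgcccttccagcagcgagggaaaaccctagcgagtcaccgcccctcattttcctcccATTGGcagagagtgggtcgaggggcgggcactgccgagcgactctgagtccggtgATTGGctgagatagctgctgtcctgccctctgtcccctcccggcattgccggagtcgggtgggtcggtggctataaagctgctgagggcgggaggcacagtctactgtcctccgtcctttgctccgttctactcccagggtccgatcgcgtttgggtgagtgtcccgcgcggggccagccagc
Nsdhl: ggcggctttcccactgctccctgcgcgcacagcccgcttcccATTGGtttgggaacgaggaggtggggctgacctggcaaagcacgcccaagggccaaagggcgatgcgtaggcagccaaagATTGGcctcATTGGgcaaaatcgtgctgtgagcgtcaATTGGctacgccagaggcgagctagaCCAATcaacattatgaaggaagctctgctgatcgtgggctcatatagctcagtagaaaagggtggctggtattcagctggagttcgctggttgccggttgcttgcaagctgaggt
Hsd17b7: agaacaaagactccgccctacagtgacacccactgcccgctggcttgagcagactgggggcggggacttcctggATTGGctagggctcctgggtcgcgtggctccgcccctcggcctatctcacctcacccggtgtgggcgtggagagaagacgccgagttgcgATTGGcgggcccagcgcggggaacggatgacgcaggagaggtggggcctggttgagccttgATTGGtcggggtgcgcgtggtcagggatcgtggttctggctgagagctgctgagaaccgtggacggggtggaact
A match describes the letters of this window and no more.

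Genes of the cell cycle fell from low levels. Of 21 measured members, 10 fell with 30 libraries (background 4.4% lower) and 12 with 28 (background 11% lower), and none rose. Top2a, a topoisomerase of dividing cells, was at 0.927, 3.01 and 6.07 CPM at PND42 and at 0.487, 0.959 and 2.35 CPM at PND90, which overlapped (log2 fold change -1.59, SE 0.20, with 28 libraries). Cdk1 (-1.19), the kinase of mitosis, and Nusap1 (-1.29), a spindle protein, fell likewise, and Mki67 (-0.99) was called with 28 but not with 30 libraries. Among genes of DNA replication, Pcna, Mcm2 and Tyms had log2 fold changes between -0.02 and 0.04 with 28 libraries and were not called. Mcm6 (-0.11), Rrm2 (-0.19) and Mcm5 (-0.37) were negative and not called either. Mcm3, of the same helicase as Mcm2, fell by 0.49.

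Collagens and other genes of the extracellular matrix fell. Col1a1, the main collagen of connective tissue, was at 9.98, 28 and 87.9 CPM at PND42 and at 3.12, 4.75 and 15.4 CPM at PND90, so that the highest PND90 libraries overlapped with the lowest PND42 libraries. Its log2 fold change was -2.27 (SE 0.32, adjusted p = 2.74e-05) with 30 libraries and -2.33 with 28. Col3a1 fell by 2.72, Eln (elastin) by 2.06 and Lox, which crosslinks both fibres, by 1.86 with 28 libraries. Lox lost its call in 22 of 30 fits with 1 library removed. In all, 9 of 19 members of the list fell with 30 libraries (background 4.4% lower) and 13 with 28 (background 11% lower), and none rose. Genes of the basement membrane differed among themselves. Nid1 (nidogen) fell by 1.02 with 28 libraries, from between 32.4 and 93.1 CPM to between 20.8 and 31.4 CPM, and was the 1 member of the list without overlap between the ages. Col4a1 fell by 0.46 and Col4a2 was not called (-0.08). Sparc and Fn1 were not called (0.30 and -0.39).

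Markers of the meninges, the connective tissue around the brain, moved with the collagens. All 8 measured meningeal markers fell with 28 libraries (background 11% lower) and 7 of 8 with 30 (background 4.4% lower). Their sum ranged from 56.0 to 467 CPM at PND42 and from 25.7 to 80.8 CPM at PND90 in the 28 libraries. Igf2, a growth factor expressed there, was at 33.4, 111 and 320 CPM at PND42 and at 12.2, 29.9 and 47.9 CPM at PND90, and Slc22a6, an organic anion transporter, fell by 2.37 and Slc6a13, a GABA transporter, by 1.66. Blood transcripts fell in 6 of 6 measured genes, and their sum went from between 527 and 986 CPM to between 149 and 545 CPM. The globin gene Hbb did not overlap between the ages (210 to 330 CPM against 43.2 to 188 CPM), although reads of near-identical globin copies may have been divided among them. The part of meninges or blood left on the tissue in the collagen values was not tested.

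Components of perineuronal nets and related matrix gave 4 falls among 13 genes with 30 libraries (background 4.4% lower). With 28 libraries 8 fell (background 11% lower), and none rose in either fit. Adamts4, a protease that cuts net proteoglycans, fell from 64.4, 90.6 and 108 CPM to 27.3, 45.9 and 57.4 CPM without overlap (log2 fold change -1.12, SE 0.09). Vcan (-0.57), Tnc (-0.62) and Tnr (-0.44), 1 proteoglycan and 2 tenascins, fell with overlapping ages. Acan, the core proteoglycan of the nets, was called with 28 libraries (-0.28) and not with 30, and Pvalb, of the interneurons the nets surround, was not called (-0.41).

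Alox15, a lipoxygenase that oxidises polyunsaturated fatty acids, had the lowest adjusted p-value of the named genes with 30 libraries. It stood at 4.52, 6.86 and 9.25 CPM at PND42 and at 0.831, 1.38 and 2.38 CPM at PND90 without overlap, and even the pituitary library lay under every PND42 library with 2.62 CPM. The log2 fold change was -2.15 (SE 0.18, adjusted p = 1.43e-08). Ttr and Mfrp, which are genes of the choroid plexus and its neighbourhood, had log2 fold changes of -4.81 and -2.13 that were largest in D3: with 28 libraries Ttr had a fold change of -9.62 (D3), 0.31 (D6) and -3.99 (D12). The D3 PND42 replicates 1 to 3 held up to 1617 CPM of Ttr against a PND42 median of 3.60 CPM. Prkcd and Gabrd, a thalamic kinase and the delta subunit of the GABA-A receptor, were at 678 and 109 CPM in D6 PND42 replicate 4. Without that library alone neither was called (log2 fold change -1.30, adjusted p = 0.0505, and -1.0, adjusted p = 0.109), and without both libraries Prkcd was called (adjusted p = 0.0244) and Gabrd was not (adjusted p = 0.0605).

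**Figure D3:**
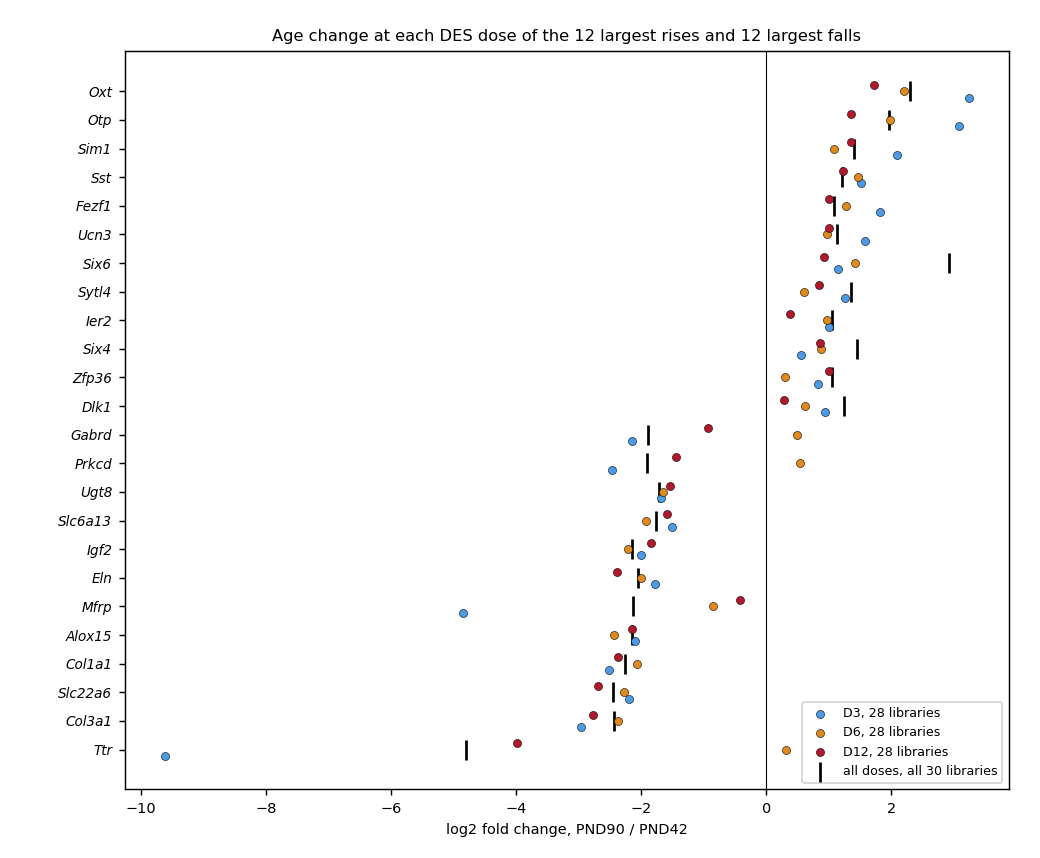
Log2 fold change from PND42 to PND90 of the 12 largest rises and 12 largest falls chosen with all 30 libraries; points give D3, D6 and D12 over 28 libraries and the black bar gives the value of all doses with 30 libraries. Ugt8, Alox15, Col1a1 and Igf2 have their 3 points close together, Ttr lies between -9.62 and 0.31, and the bar of Six6 at 2.92 lies to the right of its 3 points.

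Neuropeptides of the reproductive axis and its neighbours rose. Of 17 measured members 4 rose with 30 libraries (background 3.08% higher), 11 with 29 (background 7.65% higher) and 12 with 28 (background 10.9% higher), and none fell. Their median log2 fold change was 0.61 with 30 libraries and 0.77 with 28. Oxt (oxytocin) was at 6.10, 72.5 and 187 CPM at PND42 and at 26.2, 355 and 927 CPM at PND90. The ages overlapped, with a log2 fold change of 2.30 (SE 0.51, adjusted p = 0.00517) with 30 libraries and 2.39 (SE 0.41) with 28. Avp (vasopressin) went from 0.871, 20.3 and 143 CPM to 8.0, 108 and 275 CPM, and was called without the pituitary library (1.83, adjusted p = 0.016) but not with it (adjusted p = 0.0866).

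Some other peptides of the list separated the ages more sharply. Sst (somatostatin) was at 16.8, 32.6 and 58.3 CPM at PND42 and at 50.2, 81.3 and 160 CPM at PND90, without overlap once D6 PND42 replicate 4, the highest PND42 library, was set aside (log2 fold change 1.4, SE 0.19). Its call with 30 libraries (adjusted p = 0.0295) was lost without D3 PND90 replicate 2 (adjusted p = 0.0525) or D6 PND90 replicate 1 (adjusted p = 0.067). Cartpt, a peptide linked to feeding, ranged from 6.75 over 10.6 to 68.8 CPM at PND42, where the highest value was again D6 PND42 replicate 4 and the next 14.8 CPM, and from 15.9 over 24.8 to 52.4 CPM at PND90 (log2 fold change 1.37, SE 0.14, adjusted p = 5.17e-08 with 28 libraries). Tac1, the precursor of substance P, went from 18.7, 26.5 and 35.1 CPM to 36.2, 43.6 and 61.2 CPM without overlap (0.79, adjusted p = 1.56e-07 with 28 libraries). Pdyn, the dynorphin precursor, rose by 0.68 with 30 libraries and 0.82 with 28. Trh, Adcyap1, Gal, Crh, Vip and Tac3 were called with 28 libraries only or with 28 and 29, with log2 fold changes between 0.55 and 0.97.

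Gnrh1 and Kiss1 (kisspeptin), which control the onset of puberty, were not called in any of the 3 fits. Gnrh1 had a median of 11.6 CPM at PND42 and of 16.0 CPM at PND90, with a log2 fold change of 0.39 (SE 0.16, adjusted p = 0.0922) with 28 libraries. Kiss1 had medians of 2.62 and 3.02 CPM (0.26, SE 0.30, adjusted p = 0.577).

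Some region markers are themselves peptides of the list above: Oxt and Avp among the magnocellular markers, and Gal and Gnrh1 among those of the POA. Their sums are therefore not separate from the peptide values. The 4 magnocellular markers Oxt, Avp, Sim1 and Otp all rose with 28 libraries, and their sum ranged from 7.71 to 345 CPM at PND42 and from 37.8 to 1204 CPM at PND90. Sim1 and Otp, transcription factors of the paraventricular and supraoptic nuclei, had log2 fold changes of 1.53 and 2.08. Ucn3, a peptide of the corticotropin-releasing factor family made next to them, rose by 1.2 with 28 libraries. With 30 libraries it was called (1.13), but not without D6 PND90 replicate 1 (adjusted p = 0.0585). The sum of 9 POA markers went from between 64.2 and 133 CPM to between 64.0 and 176 CPM. Of these markers, 3 of 9 were called higher in the 28 libraries (Hmx2, Hmx3 and Gal) and none lower. Over all genes 10.9% were higher and 11% lower in this fit. Markers of the septum and basal forebrain in front of the POA summed to between 167 and 352 CPM at PND42 and between 93.8 and 380 CPM at PND90, with Trpc4 (-0.69) and Zic4 (-0.35) called lower among 7. With 28 libraries, 4 of 7 mediobasal markers rose, and Pmch reached 290 CPM in D12 PND90 replicate 1. The part of the position of the dissection in the peptide values was not tested.

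Several of the largest rises with 30 libraries were larger with the pituitary library than without it. Six6, a homeobox gene of the suprachiasmatic nucleus and the pituitary, was at 261 CPM in D6 PND90 replicate 2 and at no more than 4.83 CPM in the other PND90 libraries, so that its log2 fold change was 2.92 with it and 1.04 without it. The same held for Dlk1 (1.24 and 0.61), Six4 (1.45 and 0.71) and Sytl4 (1.36 and 0.90), all still called without that library. Over the 30 fits with 1 library removed, the call was lost in 21 for Six6, 8 for Dlk1, 5 for Six4 and 11 for Sim1. Fezf1, a transcription factor of the hypothalamus that is mutated in human pubertal failure, had a log2 fold change of 1.08 with 30 libraries and 1.36 with 28, and its call with 30 was lost in 20 such fits.

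Of 27 measured receptors and steroid enzymes of the reproductive axis, 1 fell and none rose with 30 libraries, against 4.4% lower and 3.08% higher over all genes. With 28 libraries 6 rose and 1 fell, against 10.9% higher and 11% lower over all genes. The fall was that of Srd5a1, a steroid 5-alpha-reductase, from 25.6, 31.0 and 37.5 CPM to 16.1, 21.5 and 31.6 CPM (log2 fold change -0.60, adjusted p = 0.00775, with 30 libraries). With 28 libraries Kiss1r (0.59), Avpr1a (0.54), Mc3r (0.47), Npffr1 (0.45), Oprk1 (0.38) and Ghr (0.25) rose. The estrogen receptor Esr1 and the progesterone receptor Pgr were called in none of the fits, with log2 fold changes of 0.45 (SE 0.18, adjusted p = 0.0807) and 0.25 (SE 0.13, adjusted p = 0.185) with 28 libraries. Esr1 was at 224 CPM in the pituitary library against a PND90 median of 25.0 CPM in the others.

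The list of regulators of puberty and chromatin was drawn partly from genes the study chose on samples of this series, so it is no independent evidence of its direction. Of 19 measured members, 2 rose and 4 fell with 30 libraries (background 3.08% higher, 4.4% lower). With 28 libraries 3 rose and 9 fell (background 10.9% higher, 11% lower). Mkrn3, a ubiquitin ligase that restrains the onset of puberty, was at 1.2, 1.83 and 2.40 CPM at PND42 and at 0.571, 1.04 and 1.86 CPM at PND90 (log2 fold change -0.66, SE 0.14, adjusted p = 0.00395). With 28 libraries its fold change was -0.79 (D3), -0.03 (D6) and -1.13 (D12). Sirt2, a deacetylase abundant in oligodendrocytes, fell by 0.69 without overlap between the ages. Ezh2 (-0.51), a histone methyltransferase, and Tet1 (-0.60), which oxidises methylated cytosine in DNA, fell with 28 libraries. Their calls with 30 were lost in 23 and 20 of 30 fits with 1 library removed. Cbx7, a Polycomb protein, rose by 0.32.

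Immediate early genes, which neurons and other cells transcribe within minutes of a stimulus, gave 4 rises among 20 genes with 30 libraries (background 3.08% higher). With 28 libraries 8 rose (background 10.9% higher), and none fell in either fit. Fos was at 10.2, 21.6 and 48.8 CPM at PND42 and at 13.9, 35.3 and 71.3 CPM in the 14 PND90 libraries of brain, with 237 CPM in the pituitary library. The log2 fold change was 1.01 (adjusted p = 0.0493) with 30 libraries and 0.71 (SE 0.21, adjusted p = 0.0142) with 28. By dose, with 28 libraries, it was 0.52 (D3), 1.39 (D6) and 0.36 (D12). Its call with 30 libraries was lost in 21 of 30 fits with 1 library removed. Ier2, a nuclear protein of the same response, was at 1.41, 3.50 and 6.84 CPM and at 2.05, 7.15 and 11.1 CPM (0.76, SE 0.20, with 28 libraries). With 30 libraries (1.05, adjusted p = 0.0295) its call was lost without D6 PND42 replicate 1 (adjusted p = 0.0511), D6 PND42 replicate 2 (adjusted p = 0.0529), D6 PND42 replicate 5 (adjusted p = 0.0503) or D12 PND90 replicate 1 (adjusted p = 0.0527). Arc, Egr2 and Egr3, which respond to synaptic activity, were not called (log2 fold changes -0.50, -0.39 and -0.40).

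Promoters were matched for 14 members of this list. A narrow form of the CArG core, the motif of serum response factor, was searched on either strand. It stood in Egr1 and Egr2 and in 0.46% of all promoters. Other forms of this motif were not searched, so the other promoters may hold it. The full cAMP response element TGACGTCA reads the same on both strands. It stood in 3 of the 14 (Ier2, Btg2 and Dusp1) and in 1.83% of all promoters. The promoter of Ier2 (GRCr8, chr19:40399123-40399422, plus strand) is shown because it holds this element and the gene was called in all 3 fits; the element is in capitals.
Ier2: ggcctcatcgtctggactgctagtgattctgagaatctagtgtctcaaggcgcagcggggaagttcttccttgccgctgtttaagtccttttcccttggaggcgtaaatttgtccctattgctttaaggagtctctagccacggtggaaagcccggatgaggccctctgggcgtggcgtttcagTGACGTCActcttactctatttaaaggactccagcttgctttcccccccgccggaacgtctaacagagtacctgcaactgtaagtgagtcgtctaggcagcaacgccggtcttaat
Btg2 was called with 28 libraries (0.66) and Dusp1 was not (0.34).

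Ribosomal protein genes rose by small amounts: 9 of 19 with 30 libraries, 13 with 29 and 14 with 28. Over all genes 3.08%, 7.65% and 10.9% were higher in these fits. The median log2 fold change of the list was 0.40 and 0.23 with 30 and 28 libraries. Rplp1 was at 134, 206 and 233 CPM at PND42 and at 198, 255 and 328 CPM at PND90 (0.41, SE 0.08, adjusted p = 0.000879 with 28 libraries). Their sum was 12890 CPM in the pituitary library and between 4363 and 6866 CPM in the other PND90 libraries. Genes of oxidative phosphorylation gave 0 calls among 21 with 30 libraries and 2 rises with 28 (Uqcrq, 0.36, and Ndufb8, 0.26).

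Microglia, the resident macrophages, showed 1 rise among 16 markers with 30 libraries (Tyrobp, 0.45, adjusted p = 0.0064) and 3 with 28, when Trem2 (0.38) and Itgam (0.35) were added. Over all genes 3.08% and 10.9% were higher in these fits, and the counts of this list and of the interferon list exceed that share by less than 2 genes each. Of 14 measured genes of antigen presentation, 4 rose with 30 and with 28 libraries, read against the same shares. These were B2m (0.22), Tap1 (0.38), Tapbp (0.29) and Psmb9 (0.48), genes of the class I pathway, with fold changes of 28 libraries. With 30 the call of Tapbp (adjusted p = 0.0429) was lost in 16 of 30 fits with 1 library removed. The class I genes RT1-A1 (0.17), RT1-A2 (0.34) and RT1-CE10 (0.19) were called with neither 30 nor 28 libraries. The class II gene RT1-Bb fell by 0.91 with 28 libraries, and the other class II genes measured were not called. The interferon-induced genes Ifi27 (0.55), Ifit3 (0.86) and Irf9 (0.20) rose with 28 libraries, and Ifi27 alone with 30, where its call was lost in 13 of 30 fits with 1 library removed.

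In the other lists the calls are read against 7.48% of all genes called with 30 libraries and 21.8% with 28. None of 19 circadian clock genes was called with 30, 29 or 28 libraries, with a median log2 fold change of 0.00 with 28. Astrocyte markers gave 0 calls among 14 with 30 libraries and 3 rises with 28 (Fgfr3, S100b and Slc1a3). Glucocorticoid-responsive genes gave 0 calls among 14 with 30 libraries and 2 falls with 28 (Sult1a1, -0.61, and Klf9, -0.24). Among GABA-A receptor subunits, Gabrb2 (-0.30) was the member called of 14 with 28 libraries, and among 22 glutamate receptor subunits 6 fell, among them Grm3 (-0.47), Grm5 (-0.36) and Grin2b (-0.31), and Grik5 rose by 0.15. None of these glutamate receptor subunits was called with 30 libraries. Immature neurons gave 0 calls among 14 with 30 libraries and 2 rises and 3 falls with 28, with Draxin, an axon guidance protein, at -0.79. Endothelial and mural cells gave 1 fall each with 30 libraries, Cdh5 (-0.36), which lost its call in 10 of 30 fits with 1 library removed, and Abcc9 (-0.40).

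**Figure D4:**
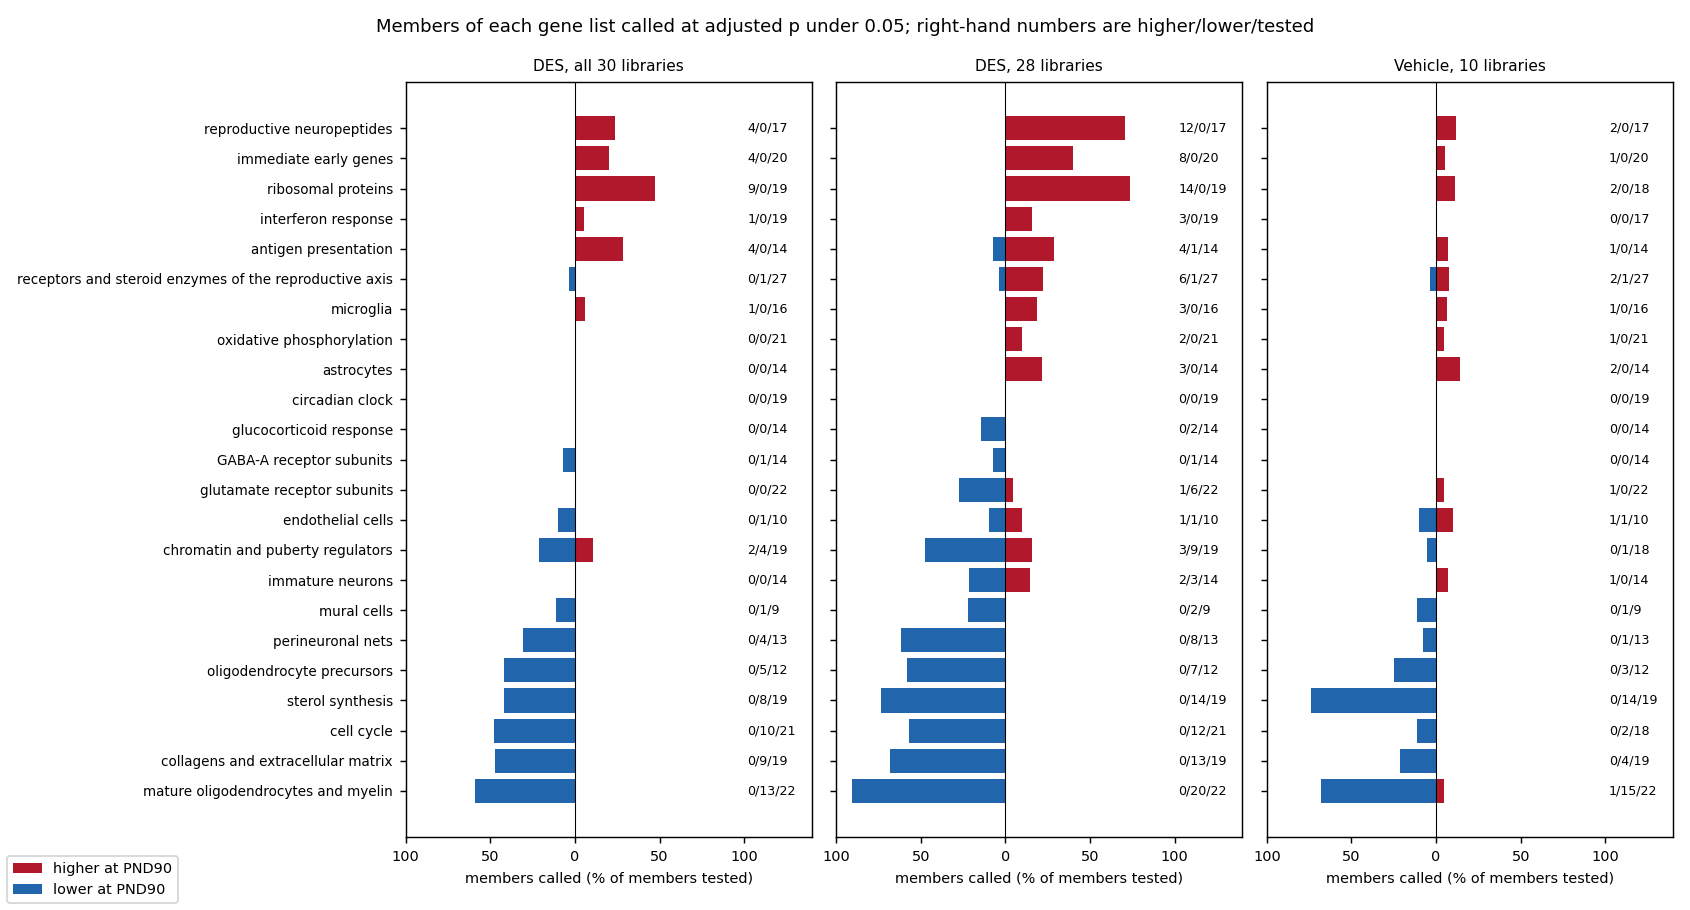
Share of the measured members of each of 23 functional gene lists called higher (red) or lower (blue) at PND90, for the DES rats with 30 and with 28 libraries and for the vehicle rats with 10; the numbers at the right of each panel are members higher, lower and tested. In the panel of 28 libraries myelin has 20 of 22 members lower, sterol synthesis 14 of 19 lower, neuropeptides 12 of 17 higher and ribosomal proteins 14 of 19 higher.

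The age effect was also estimated at each dose in a model of the 6 group means. With 30 libraries it gave 360 genes (2.37%) in D3, 398 (2.62%) in D6 and 30 (0.198%) in D12, and 14 genes were called at all 3 doses. These counts varied widely with the fit: the libraries of 1 dose alone gave 2585, 0 and 469 genes. With 1 library removed, D3 ranged from 134 (without D3 PND42 replicate 2) to 2016 (without D6 PND90 replicate 2), D6 from 34 (without D6 PND42 replicate 2) to 1392 (without D6 PND90 replicate 5) and D12 from 8 (without D12 PND90 replicate 1) to 216 (without D6 PND90 replicate 2). With 28 libraries the numbers were 2638 (17.3%), 454 (2.97%) and 309 (2.02%), and 126 genes were called at all 3 doses with the same sign. Without the 7 libraries, which included 4 of the 5 D3 PND42 libraries, D3 gave 27 genes, D6 461 and D12 490. With 28 libraries the log2 fold change of Ugt8 was -1.69, -1.64 and -1.53 in D3, D6 and D12, and that of Cyp51 was -0.52, -0.51 and -0.48. With 28 libraries Oxt was called in D3 (3.24, adjusted p = 0.00235) and not in D6 (2.21, adjusted p = 0.105) or D12 (1.72, adjusted p = 0.184). With 30 it was called at none of the doses (adjusted p = 0.0516 in D3), and the test of age by dose did not separate these values (adjusted p = 0.674).

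Whether the age effect differed between doses was tested as the interaction of age and dose on 2 degrees of freedom. It was called for 0 of 15187 genes with 30 libraries, where 1246 genes lay below 0.05 before adjustment and DESeq2 called 35. With 28 libraries 15 of 15267 genes (0.0983%) were called. Camk2n2, an inhibitor of a calcium-dependent kinase, was at 7.38 ± 1.252 CPM at PND42 and 17.3 ± 3.27 CPM at PND90 in D3 (SD, n = 5 each), at 9.64 ± 2.57 and 18.4 ± 3.79 CPM in D6 (SD, n = 4 each) and at 13.5 ± 1.83 and 12.95 ± 1.74 CPM in D12 (SD, n = 5 each; edgeR's adjusted p = 0.0413). The levels of D12 lay at both ages between those of the younger and the older D3 rats. Ppp1r37, a regulator of protein phosphatase, had log2 fold changes of 0.47, 0.40 and -0.15 (adjusted p = 0.0337), and Lypla2, a thioesterase, of 0.49, 0.41 and -0.06 (adjusted p = 0.0413). Capn15 (0.58, 0.26 and -0.13) and Slc25a29 (0.29, 0.14 and -0.31) had the same order. Without the 7 libraries 1 gene was called.

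Vehicle rats of the same ages gave 946 calls among 14419 genes (6.56%), 596 higher (4.13%) and 350 lower (2.43%), with 5 libraries against 5. Of these, 324 were called in the DES rats with 30 libraries and 662 with 28, in the same direction in every case. The 662 genes make up 70% of the vehicle calls and 19.9% of the DES calls, and these comparisons share no library. In vehicle rats, 15 of 22 myelin genes fell and 1 rose, and 14 of 19 sterol genes fell. Neuropeptides gave 2 rises of 17 and immediate early genes 1 of 20. Ugt8 went from 343, 364 and 456 CPM to 103, 135 and 170 CPM (lowest, median and highest of 5, log2 fold change -1.50), and Oxt from 40.5, 111 and 178 CPM to 90.7, 359 and 477 CPM (1.52).

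The difference itself was tested as the mean age effect of the 3 DES doses minus that of vehicle, over all 8 groups. No gene was called with 40, 39 or 38 libraries by edgeR, nor by DESeq2 with 40, with 667, 1102 and 1365 genes below 0.05 before adjustment. With 38 libraries, the difference in log2 fold change was -0.12 (SE 0.19) for Ugt8, -0.26 (SE 0.19) for Cldn11 and 0.00 (SE 0.07) for Cyp51. It was 0.87 (SE 0.71) for Oxt, 0.77 (SE 0.38) for Sst and -1.23 (SE 0.71) for Col1a1. Tac1 (0.55, SE 0.17), Gpr17 (-0.31, SE 0.11) and Hmgcs1 (0.18, SE 0.07) had unadjusted p-values of 0.00238, 0.00651 and 0.0102 and adjusted p-values of 0.368, 0.401 and 0.415. A gene called in DES rats and not in vehicle rats was thus not shown to differ between them, and the DES fit had more libraries.

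**Figure D5:**
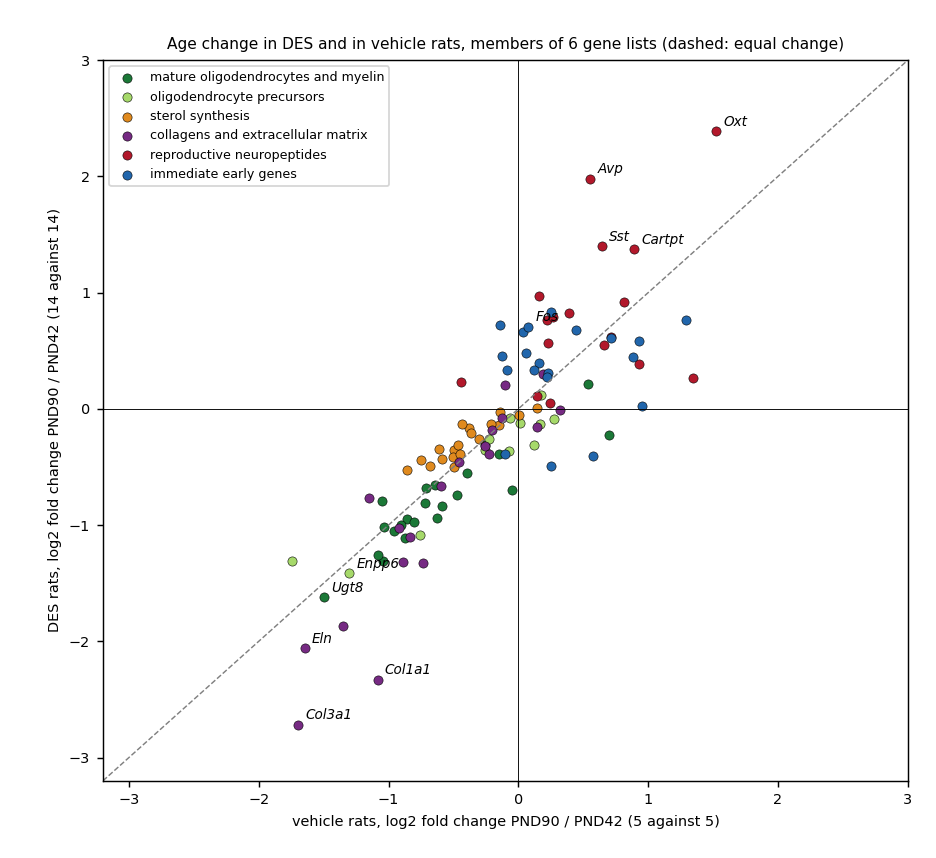
Log2 fold change from PND42 to PND90 in vehicle rats (x axis, 5 against 5 libraries) and in DES rats (y axis, 14 against 14) for the members of 6 gene lists; each point is a gene and the dashed line marks equal change. Myelin, sterol and precursor genes lie near the line below 0, as Ugt8 at -1.50 and -1.62, while Oxt lies at 1.52 and 2.39 and Col1a1 at -1.08 and -2.33.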

How the data were processed

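RNA from the dissected POA was sequenced as stranded, poly(A)-selected libraries. The authors demultiplexed with bcl2fastq 2.20, aligned reads to the rat genome Rnor_6.0 with STAR within an nf-core pipeline and counted them per gene with featureCounts. The deposited values are raw read counts per gene, with no normalization. From these counts, genes were kept with the filterByExpr function of edgeR 4.0.16 (minimum count 10), scaled by TMM and fitted with the quasi-likelihood test in R 4.3.3, two-sided, with Benjamini-Hochberg adjustment over all genes tested and a threshold of 0.05. Age was tested with dose as a covariate, at each dose and as age by dose in a model of group means, in vehicle rats, and as age by exposure over 8 groups. Alternatives were DESeq2 1.42.0, another scaling, no filter, dose as a number or left out, a replicate block, and leaving out libraries. Leaving out D6 PND42 replicate 4 as well, or 7 libraries, was chosen after seeing the data. Tests were checked on simulated counts.

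The members and gene lists were chosen with earlier results of these data known. Named genes were the 12 largest rises and 12 largest falls called with and without the pituitary library, with one sign at all doses in the fit of 30 libraries and a mean log2 CPM not below 1, up to 5 called members of each functional list, 8 genes of the reproductive axis and its glia, the 5 age-by-dose genes of lowest p-value and markers on which a result turns. Other list members were named after their values were seen. P-values weigh a difference against the spread between rats within groups. Rats of one litter cannot be told apart, so this spread may mix variation within and between litters. Replicate numbers did not pair the libraries: of 15 pairs with the same dose and number, 3 had a correlation of deviations above 0.1 (median 0.0226). Reads of near-identical gene copies, such as globins and ribosomal proteins, may be divided among them. Some genes of these lists are not reported here.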

Additional observations from a re-analysis of the deposited data

Results flagged for a closer look

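The 39 measures examined were the marker and functional lists and the total read count. In each of the 6 DES groups without D6 PND90 replicate 2, the highest or lowest library was compared with the rest by Dixon's gap ratio. In 24 of 234 such groups a library stood apart at the 95% level, where chance gives about 1 in 20, and the lists share genes. All values below are summed CPM of a list.

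D6 PND42 replicate 4 stood apart in 8 lists. It was high for mediobasal hypothalamus (984, others 9.117 to 11.1), thalamus (2191, others 344 to 553), suprachiasmatic nucleus (213), pituitary (107), cortex and hippocampus (145), mammillary nuclei (26.7) and chromatin and puberty regulators (1485). It was low for preoptic area (43.6, others 112 to 133). In its group, replicate 2 was high for mural cells (348) and replicate 1 low for blood (558.5).

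D3 PND90 replicate 2 stood apart in 4 lists, with high magnocellular transcripts (1204, others 298 to 503) and neuropeptides (2312, others 1002 to 1352) and low myelin (9193, others 15080 to 17060) and precursor transcripts (518.5). D6 PND90 replicate 3 was also low for precursors (509.8), and D6 PND90 replicate 4 was high for striatum (402.5) and for cortex and hippocampus (225). The part of the dissection in these values was not tested.

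Single lists set apart D3 PND42 replicate 5 (neuropeptides, 761.8), D3 PND42 replicate 1 (endothelial cells, 522), D12 PND42 replicate 5 (immediate early genes, 501.5) and D12 PND90 replicate 1 (mediobasal hypothalamus, 307.5) as high. D3 PND90 replicate 5 (circadian clock, 1047), D12 PND90 replicate 2 (receptors and steroid enzymes, 741) and D12 PND90 replicate 4 (ependyma, 80.6) were low. The age effect differed between doses for 15 genes once D6 PND90 replicate 2 and D6 PND42 replicate 4 were left out, by the interaction test of edgeR.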

How the results depend on the processing

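The age effect of 1136 genes stayed within 1.5 times under DESeq2 (1628), DESeq2-type scaling (1149), no filter (922), dose as a number (1163), no dose (1266) and a replicate block (1007). Leaving out 2 libraries gave 3329 and leaving out 7 gave 2036, and leaving out 1 gave 852 (D3 PND42 replicate 4) to 2707 (D6 PND90 replicate 2). DESeq2 called 686 genes at D3, 685 at D6, 76 at D12, 35 for age by dose and 1515 in vehicle rats. No filter gave 217 at D3 and 262 at D6. Fits of one dose's libraries alone gave 2585, 0 and 469 at D3, D6 and D12, and the replicate block gave 84 at D6. Without 2 libraries D3 gave 2638, D12 309 and age by dose 15, with 62 list members higher and 100 lower. Without 7, D3 gave 27, D12 490 and age by dose 1, with 38 list members higher. With 1 library left out, D3 ranged from 134 (D3 PND42 replicate 2) to 2016 (D6 PND90 replicate 2), D6 from 34 (D6 PND42 replicate 2) to 1392 (D6 PND90 replicate 5), D12 from 8 (D12 PND90 replicate 1) to 216 (D6 PND90 replicate 2), age by dose from 0 to 3, vehicle from 445 (vehicle PND42 replicate 1) to 1241 (vehicle PND90 replicate 3) and age by exposure from 0 to 0. List members called went to 53 higher and 91 lower without D6 PND90 replicate 2, against 25 and 57 with all. The cause of these shifts was not tested. Of 73 called named genes, 23 lost the call in at least 1 fit without 1 library and 25 under another alternative. Slc25a29 was at a log2 fold change of 0.03138 without 2 libraries and -0.05 with all, called in neither. Low counts limit Top2a and Mkrn3, at a few CPM.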
